A study of Mus musculus with 2 samples.

Results

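The chitinase-like and alternative activation genes are a set of 9 mouse genes read by 14 probes, out of 19057 genes and 45281 probes on an Illumina bead array. They are Chil1, Chil3, Chil4 and Chit1 of the chitinase family, the resistin-like gene Retnla, the arginase gene Arg1, and the lectin receptor genes Mrc1, Mgl2 and Clec10a. Members were chosen by name, and every probe annotated to one of these symbols was taken. The set was proposed with the values of these same arrays in view, so the levels and differences below describe the 2 samples and carry no test.

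RNA came from cells cultured from bone marrow of the tibia and femur of C57BL/6J mice aged 8 to 12 weeks, with no genetic change named in the labels. Both cultures received macrophage colony-stimulating factor (M-CSF) at 25 ng/ml, first for 4 days. The macrophage sample was grown with M-CSF alone. The osteoclast sample had 3 further days with M-CSF and soluble RANKL, the cytokine that drives osteoclast formation, at 30 ng/ml. Each sample stood for 3 mice and was read on 1 array, so no spread between samples can be given. The labels name no sorting of the marrow cells, no interleukin 4 (IL-4) or interleukin 13 (IL-13) in either culture, and no time at which the macrophages were collected. The arrays lay on different chips, so chip and cell type cannot be told apart, nor can fewer cells of a type and less RNA per cell.

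Alternative activation is the state that macrophages enter under IL-4 or IL-13, whose receptors signal through JAK kinases to the transcription factor STAT6. Its usual markers in the mouse are secreted proteins (Chil3, Retnla), the cytosolic enzyme arginase 1, and receptors that bind sugars on glycoproteins (Mrc1, Mgl2, Clec10a). Chitinase-like proteins have the fold of a chitinase but do not cleave chitin, whereas chitotriosidase, encoded by Chit1, does. Several of these genes are not markers of macrophages alone: Chil3 and Chil1 are also expressed in the neutrophil lineage.

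Intensities are given as deposited, on a linear scale with a background already subtracted, so a value can lie below 0. A probe was called detected above an intensity of 4.88 on the macrophage array or 7.24 on the osteoclast array. Differences are osteoclasts minus macrophages in log2(background-corrected intensity + 16) after quantile normalization, which understates the change of dim genes. A gene is read at its probe with the highest mean signal. All 9 genes were detected on at least 1 array and 7 on both. In the osteoclast sample 6 genes were at least 2-fold lower, 2 were at least 2-fold higher and 1 lay within 2-fold. Among all 13008 detected genes 8.20% were at least 2-fold lower and 11.5% higher, and since the members were chosen from this contrast nothing is read from the comparison. The median difference of the members was -3.21 against -0.05 for all detected genes. By probe, 9 of 13 detected member probes were at least 2-fold lower and 2 higher, beside 7.31% and 9.61% of all detected probes. With genes that were detected on 1 array set to their bound (the bright value against the lowest detected signal of the other array, or the dim probe's own value where that is higher), 6 members were lower beside 7.76% of all genes, and 1, Retnla, was higher beside 10.5%.

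**Figure D1:**
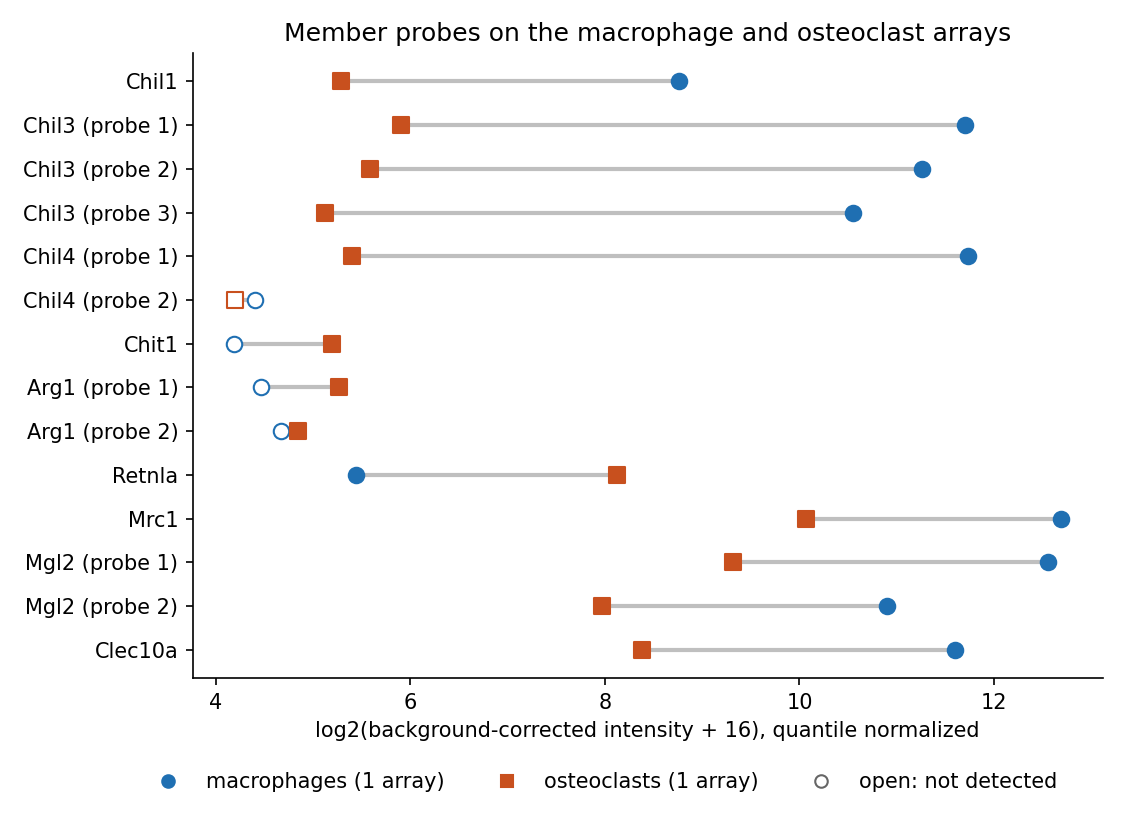
Normalized log2 level of each of the 14 member probes on the macrophage array (blue circles) and on the osteoclast array (orange squares), 1 array each, with open symbols where the probe was not detected. The probes of Chil1, Chil3, Mrc1, Mgl2 and Clec10a and the brighter probe of Chil4 lie to the right in macrophages, and Retnla lies to the right in osteoclasts.

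The windows before the start sites of Chil3, Chil4 and Retnla are shown because Chil3 and Chil4 were both far lower in osteoclasts while Retnla was higher. Each is the 250 bases before the RefSeq start, 5′ to 3′, from the RefSeq promoter table of assembly GRCm38.p6. Chil3 is chr3:106167565-106167814 on the minus strand, Chil4 is chr3:106219480-106219729 on the minus strand and Retnla is chr16:48842359-48842608 on the plus strand. Capitals mark a match to the STAT motif, TTCNNNGAA, or the same ends around a spacer of 4 bases.
Chil3: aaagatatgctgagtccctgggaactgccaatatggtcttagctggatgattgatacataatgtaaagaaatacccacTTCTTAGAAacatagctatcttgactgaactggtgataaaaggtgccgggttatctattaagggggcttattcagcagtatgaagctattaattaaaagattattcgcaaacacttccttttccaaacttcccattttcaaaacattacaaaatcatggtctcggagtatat
Chil4: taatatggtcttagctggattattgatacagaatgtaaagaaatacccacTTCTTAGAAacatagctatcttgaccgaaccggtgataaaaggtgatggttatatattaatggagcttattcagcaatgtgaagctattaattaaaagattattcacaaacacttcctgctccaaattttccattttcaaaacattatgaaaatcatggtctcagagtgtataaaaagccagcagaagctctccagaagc
Retnla: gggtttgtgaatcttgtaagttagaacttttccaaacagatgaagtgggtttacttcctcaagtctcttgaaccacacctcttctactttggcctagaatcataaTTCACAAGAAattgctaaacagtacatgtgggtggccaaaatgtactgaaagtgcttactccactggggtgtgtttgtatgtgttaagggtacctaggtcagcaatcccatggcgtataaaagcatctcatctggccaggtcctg

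The windows of Chil3 and Chil4 are copies of each other. Aligned over the table's full 300 bases, they were identical at 251 of 273 positions (91.9%), whereas Chil3 and Retnla were identical at 54.9% of 173. Both chitinase-like windows held the same STAT match, TTCTTAGAA, 172 to 164 bases before the start of Chil3 and 200 to 192 bases before that of Chil4. Retnla held TTCACAAGAA, with the longer spacer that STAT6 favours, 145 to 136 bases before its start. A C/EBP match (TTGCNNAA on either strand) followed it at 134 to 127 bases without overlap.

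Start sites of 7 members were in the table. Matches to either STAT form, which are palindromes, were found in 3 of these 7 windows and in 12.4% of all 32851 windows of the same length. A PU.1 motif (AGGAAGT, both strands), of the Ets factor that myeloid cells share, was found in 5 of 7 and in 7.69% of all windows. C/EBP matches were found in 2 of 7 and in 9.56%, and a TATA box (TATAAA, both strands) in 2 of 7 and in 12.4%. The copied windows of Chil3 and Chil4 both count for STAT and for PU.1, so these windows are not independent sequences. The motifs were picked with the members known, and a match shows letters in a window, not a bound site. Genes with a STAT match were thus both lower (Chil3, Chil4) and higher (Retnla) in the osteoclast sample.

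**Figure D2:**
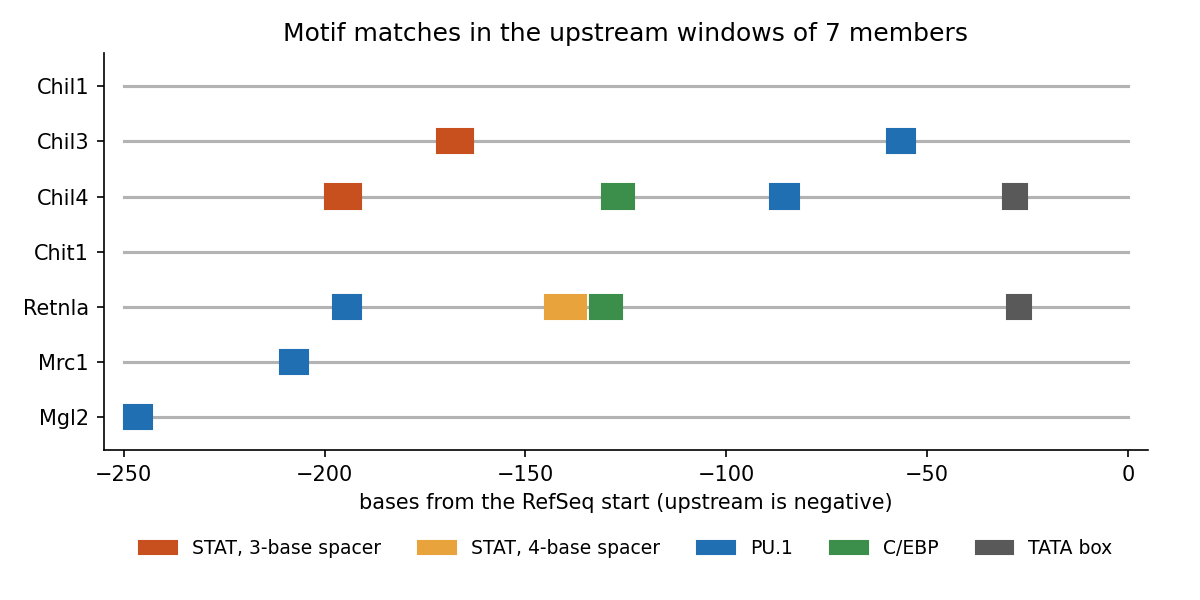
Motif matches in the 250 bases before the RefSeq start of 7 members, drawn to scale with distance from the start on the horizontal axis and 1 line per gene. Chil3 and Chil4 share a STAT and a PU.1 match in the same order, Retnla has a STAT match next to a C/EBP match, and Chil1 and Chit1 have none of the motifs searched.

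Chil3 encodes Ym1, a secreted chitinase-like lectin that can crystallise in inflamed lung. Its 3 probes read 2609, 1898 and 1123 in macrophages and 55.1, 37.1 and 19.4 in osteoclasts. All 3 were well lit in macrophages and remained above the detection limit in osteoclasts. The differences were -5.80, -5.67 and -5.42, or 55.7-fold, 51.0-fold and 42.8-fold lower, so the probes differed from each other by less than 0.5 log2 units. Without normalization the first was -5.10.

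Chil4 encodes Ym2, the close relative of Ym1, and its probes did not give 1 answer. The brighter probe read 2661 in macrophages and 29.1 in osteoclasts, a difference of -6.33 (80.6-fold lower). The other, annotated to the same transcript, read -0.81 and -10.8 and was detected on neither array, so the call of Chil4 rests on 1 probe. Chil3 and Chil4 are near copies, and whether their probes read both transcripts was not tested, so the values of the pair are uncertain as to which gene gives the signal. Between them by position on chromosome 3 lies no other protein-coding gene, and the flanking family members Chia1 (acidic chitinase) and Chil6 were detected on neither array.

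Chil1 encodes a chitinase-like glycoprotein, BRP-39, the mouse counterpart of human YKL-40. It read 303 in macrophages and 24.9 in osteoclasts on its single probe. The difference was -3.48 (11.1-fold lower), smaller than that of Chil3, and it ranged from -4.49 without background correction to -2.68 with an offset of 50.

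Chit1, the next protein-coding gene to Chil1 on chromosome 1, did not share this. Its probe read -7.56 in macrophages, not detected, and 21.7 in osteoclasts. The measured difference was 1.00, at the 2-fold limit, and the bound was only at least 1.33-fold higher. The call was lost at 0.45 with median scaling, 0.44 with an offset of 50 and 0.96 with cyclic loess. It was also lost at its bound and where only genes detected on both arrays were counted.

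The wider chitinase family was measured with 10 genes, of which 5 were detected. Besides the 4 members, that was Chid1 (chitinase domain containing 1), at 133 and 373 with a difference of 0.49. Chil5, Chil6, Chia1, Ctbs (di-N-acetylchitobiase, a lysosomal enzyme) and Ovgp1 (oviductin) were detected on neither array. Of the detected family genes 3 were lower, 1 was higher and 1 lay within 2-fold.

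Retnla encodes resistin-like molecule alpha (FIZZ1), a small secreted protein that IL-4 induces in macrophages through STAT6, and it went against most members. Its probe read 17.0 in macrophages and 360.5 in osteoclasts, above the limit on both arrays. The difference was 2.68 (6.41-fold higher), and 3.39 with the same offset but without normalization. The plain ratio of intensities, before background correction, offset and normalization, was 21.3. The offset shrinks changes of dim probes. The difference stayed between 2.01 (offset of 50) and 3.50 (no background correction) under the alternatives run.

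The neighbours of Retnla on chromosome 16 are the family genes Retnlb and Retnlg. Retnlg, known in the mouse from neutrophils and marrow, read 941 in macrophages and -6.88 in osteoclasts and was at least 48.7-fold lower. Retnlb was detected on neither array, and Retn, which encodes resistin of fat cells in the mouse, read 5.71 and 11.9 with a difference of 0.03. Adjacent genes of 1 family thus lay on opposite sides.

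Retnla is also known to be expressed in fat, and markers of fat and other tissues were read on the same array. Of 9 detected adipocyte markers, a list drawn up after seeing the data, 6 were at least 2-fold higher (4 at their bounds) and 0 lower, with a median of 1.22. With an offset of 50 or with median scaling 4 were higher, at medians of 0.60 and 0.78. The median over markers detected on both arrays was 0.20, but these were Lep (leptin) and Retn alone, without those detected only in osteoclasts. Only 2 of 11 measured markers were detected in macrophages and 9 in osteoclasts, and their summed intensity was 36.0 and 1008. Adipoq (adiponectin) read 0.27 and 177, Car3 (a carbonic anhydrase of fat and muscle) read -5.95 and 456, and Fabp4, the fatty acid binding protein of adipocytes, was detected on neither array. Epidermal and skeletal muscle markers had medians of 4.48 and 3.66, with 8 of 8 and 9 of 10 detected genes higher. Fibroblast markers had a median of 1.51. Over those detected on both arrays (Col1a2, Pdgfra and Cxcl12) it was -0.16, without Dcn, Lum, Thy1, Col1a1 and Col3a1, detected in osteoclasts only. The part of these tissues in the value of Retnla was not tested.

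Arg1 encodes arginase 1, which turns arginine into ornithine and urea and so competes with nitric oxide synthase for arginine. Its probes read 0.23 and 3.36 in macrophages, below the limit, and 24.3 and 11.4 in osteoclasts, above it. The differences were 0.80 and 0.17, and the bounds were at least 1.40-fold and at least 1.05-fold higher. Arg1 was thus detected in osteoclasts only and lay within 2-fold at each probe, although the first difference was 4.16 without background correction and 1.13 without normalization. The second turned to -0.32 with median scaling.

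Mrc1 encodes the mannose receptor (CD206), an endocytic lectin for mannose and fucose on glycoproteins. It read 5299.5 in macrophages and 1396 in osteoclasts on 1 probe. The difference was -2.62 (6.13-fold lower), and -1.91 without normalization. The transcript remained far above the detection limit in the osteoclast sample.

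Mgl2 (CD301b) and Clec10a (CD301a, also called Mgl1) encode the mouse macrophage galactose-type lectins, which bind galactose and N-acetylgalactosamine. The probes of Mgl2 read 4792 and 1431 in macrophages against 831 and 319 in osteoclasts. Their differences were -3.24 and -2.93, or 9.47-fold and 7.61-fold lower. Clec10a read 2410 and 435, a difference of -3.21 (9.28-fold lower). Without normalization the differences were -2.50 and -2.09 for the Mgl2 probes and -2.41 for Clec10a. The genes are neighbours on chromosome 11 and close relatives, so probes may read both, and the difference between their values (-3.24 and -3.21) was smaller than that between the probes of Mgl2.

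The hepatic lectin gene Asgr2, next to Mgl2, read 32.0 and 24.5 with a difference of -0.78, and Asgr1 was detected on neither array. Of 6 detected genes in the galactose lectin and mannose receptor families, 3 were lower, all members, and 0 higher. The others were Asgr2, Mrc2 (Endo180, a collagen receptor, -0.19) and Pla2r1 (a phospholipase A2 receptor, -0.57).

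**Figure D3:**
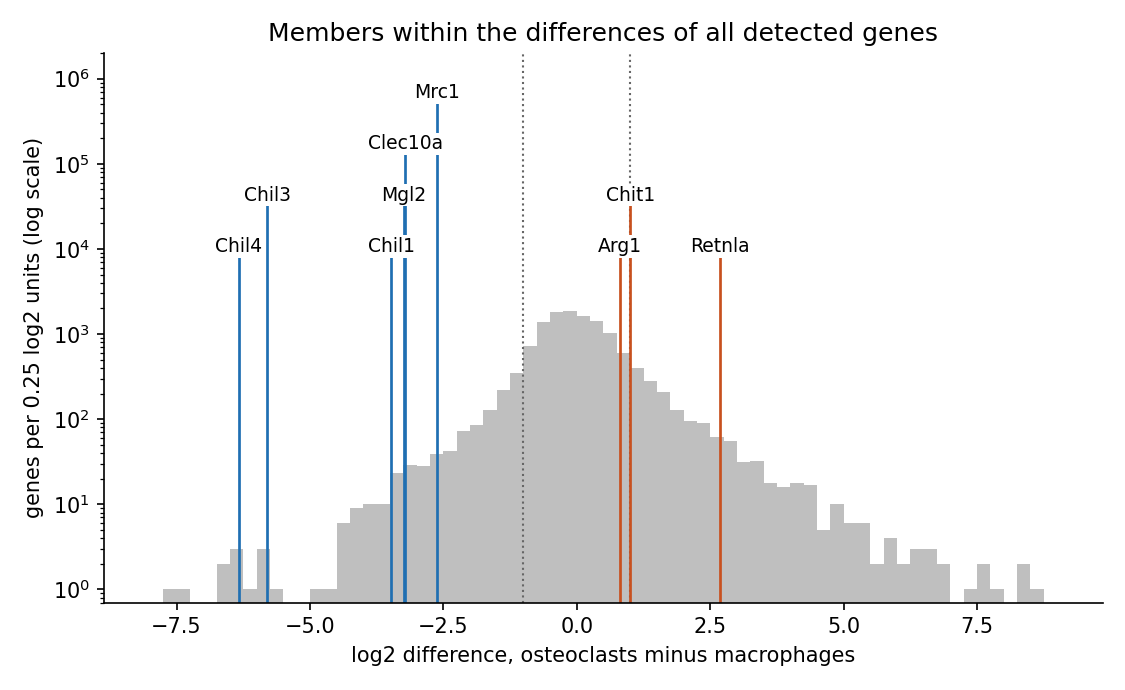
Distribution of the differences, osteoclasts minus macrophages, of the 13008 detected genes (grey, log scale of gene numbers), with the 9 members as coloured lines whose height has no meaning and dotted lines at 2-fold. Chil4 and Chil3 lie in the thin left tail, Mrc1, Mgl2, Clec10a and Chil1 between -3.48 and -2.62, and Arg1 and Chit1 at the right edge of the bulk.

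Ordered by difference among 10500 genes detected on both arrays, Chil4 had rank 7 and Chil3 rank 9 from the lowest. Chil1 followed at rank 42, Mgl2 at 60, Clec10a at 64 and Mrc1 at 132, while Retnla had rank 141 from the highest. The genes next to Chil4 in this order of 2 samples were Camp (cathelicidin, -6.34), Fpr2 (a formyl peptide receptor, -6.49) and Lcn2 (lipocalin 2, -6.53) on one side. On the other were Fcrls (-5.97), Chil3 and S100a8 (a calcium-binding protein of neutrophils, -5.68). Likeness here is the distance between 2 differences and says nothing of shared control.

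Markers of granulocytes were lower in the osteoclast sample together with the chitinase-like genes. Of 15 detected markers 14 were at least 2-fold lower and 0 higher, with a median of -5.68 (51.3-fold lower). Their summed intensity was 49926 in macrophages and 1005 in osteoclasts, and 10 of the 15 were still detected in osteoclasts. Ngp (neutrophilic granule protein) read 4663 and 13.3, Ltf (lactotransferrin) 7715 and 56.0, and S100a9 (a calcium-binding protein of neutrophils) 9164 and 124. The part of these cells in the values of Chil1, Chil3 and Chil4 was not tested.

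Macrophage markers were lower together with the lectin receptors. All 10 measured were detected on both arrays, and 9 were at least 2-fold lower, with a median of -2.44 and a summed intensity of 71638 and 23397. Without normalization 7 were lower, with a median of -1.72. Fcgr1 (a high-affinity IgG receptor) was 17.2-fold, C1qa (a complement chain) 13.7-fold, Marco (a scavenger receptor) 13.3-fold and C1qb 6.76-fold lower. Their part in the values of Mrc1, Mgl2 and Clec10a was not tested. Of 11 detected osteoclast markers 8 were higher, led by Ctsk (cathepsin K) at 55.4 and 50206. Tcirg1 (0.92), Itgb3 (0.71) and Nfatc1 (-0.02, with probes from -0.72 to 3.15) lay within 2-fold, and Atp6v0d2 was detected on neither array. The osteoclast sample thus carried most of the listed markers of its label.

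Monocyte markers were mixed, with 2 of 6 detected genes lower, F13a1 (coagulation factor XIII, 23.5-fold) and Cx3cr1 (the fractalkine receptor, 4.05-fold), and 1 higher only before its bound, Vcan (versican, at least 1.77-fold). Of 8 measured eosinophil markers 3 were detected, and 2 were lower, Prg2 (major basic protein, 14.9-fold) and Ear6 (an eosinophil ribonuclease, at least 3.13-fold). The other, Ccr3, read 9.59 and 65.0 and went up by 0.98, within 2-fold, and by 1.56 without normalization. Epx (eosinophil peroxidase) was detected on neither array. Dendritic cell, mast cell and basophil, and lymphocyte lists had medians of -0.34, 0.43 and -0.92, of which the first was 0.20 without normalization and the second -0.02 with median scaling. In these 3 lists 2 of 7, 1 of 7 and 2 of 4 detected genes were lower, and 1, 1 and 0 were higher. Among them Batf3 was at least 10.5-fold, Hdc (histidine decarboxylase) 7.59-fold and Cd79b 5.14-fold lower. Itgae of the dendritic cell list and Fcer1a of the mast cell and basophil list were 2.03-fold and 2.29-fold higher. Their bounds were only at least 1.44-fold and at least 1.75-fold.

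Of 13 detected genes that carry the IL-4 and IL-13 signal 9 lay within 2-fold, 4 were at least 2-fold lower and 0 higher, with a median of -0.63. Without normalization, where the median of all genes lay at 0.60, 1 was lower and the list median was 0.14. Il4ra, the shared receptor chain, read 28.1 and 0.71 and was at least 2.35-fold lower. Il13ra1 (the IL-13 receptor chain) differed by -1.38, Stat3 by -1.22 and the kinase gene Tyk2 by -1.01, and without normalization these were -0.50, -0.40 and -0.18. Stat6, the factor through which IL-4 induces Chil3, Retnla and Arg1, differed by -0.58 at the probe standing for it and by 0.57 at its other probe, and by 0.29 at the first without normalization. Of the ligands, Il4 was detected on neither array, and Il13 was detected on both at 23.1 and 34.2, a difference of -0.20.

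Of 14 detected transcriptional regulators of alternative activation 5 were at least 2-fold higher and 3 lower, with a median of 0.02 that was -0.11 with median scaling. Without normalization 7 were higher and 0 lower, with a median of 0.70. In that setting 3838 of all genes were higher and 374 lower, with a median of 0.60. Bhlhe40 (a basic helix-loop-helix repressor) read 40.8 and 2266 and was 21.8-fold higher. Ppargc1b (a coactivator that takes part in the IL-4 response of macrophages) was 7.24-fold, Klf4 5.62-fold and Myc 3.39-fold higher. Irf4, a factor of the IL-4 response downstream of the histone demethylase Kdm6b, read 7.93 and 6.92, a difference of -0.30. It passed the limit of 4.88 in macrophages and fell just below that of 7.24 in osteoclasts.

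Other genes that IL-4 induces in macrophages lay on both sides as well. Of 17 detected 5 were higher and 4 lower, with a median of 0.37. Without normalization 9 were higher and 1 lower, with a median of 1.04 beside 0.60 for all genes. Mmp12 (macrophage elastase) read 240 and 3486 and was 7.68-fold higher, Folr2 (a folate receptor of tissue macrophages) 4.14-fold and the kinase gene Matk 3.65-fold. Stab1 (the scavenger receptor stabilin 1) read 3469 and 485 and was 11.8-fold lower, but another of its probes differed by 1.79. Ccl17, Ccl22, Pdcd1lg2 and Alox15, usual products of IL-4-treated macrophages or dendritic cells, were detected on neither array.

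Of 11 detected genes of arginine and polyamine metabolism 3 were higher and 1 lower, with a median of 0.37. Odc1 (ornithine decarboxylase, which makes putrescine from ornithine) read 336 and 2944 and was 4.79-fold higher. Srm (spermidine synthase, which works on putrescine) read 135 and 1534 and was 5.68-fold higher, and Ass1 (argininosuccinate synthase, which remakes arginine) 3.72-fold. Arg2, the mitochondrial arginase, read 29.9 and -4.78 and was at least 2.46-fold lower, and Nos2, the inducible nitric oxide synthase, was detected on neither array. Oat (ornithine aminotransferase, which also uses ornithine) read 1645 and 3562 and lay within 2-fold at 0.37.

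Genes of the opposite, classical activation state were lower too. Of 10 detected 6 were at least 2-fold lower and 0 higher, with a median of -2.38. They were led by Fpr2 (89.7-fold, also expressed by neutrophils), Gpr18 (at least 12.0-fold), Il1b (interleukin 1 beta, 11.1-fold) and Cd86 (a costimulatory ligand, 10.9-fold). The granulocyte list, with its median of -5.68, moved the same way.

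**Figure D4:**
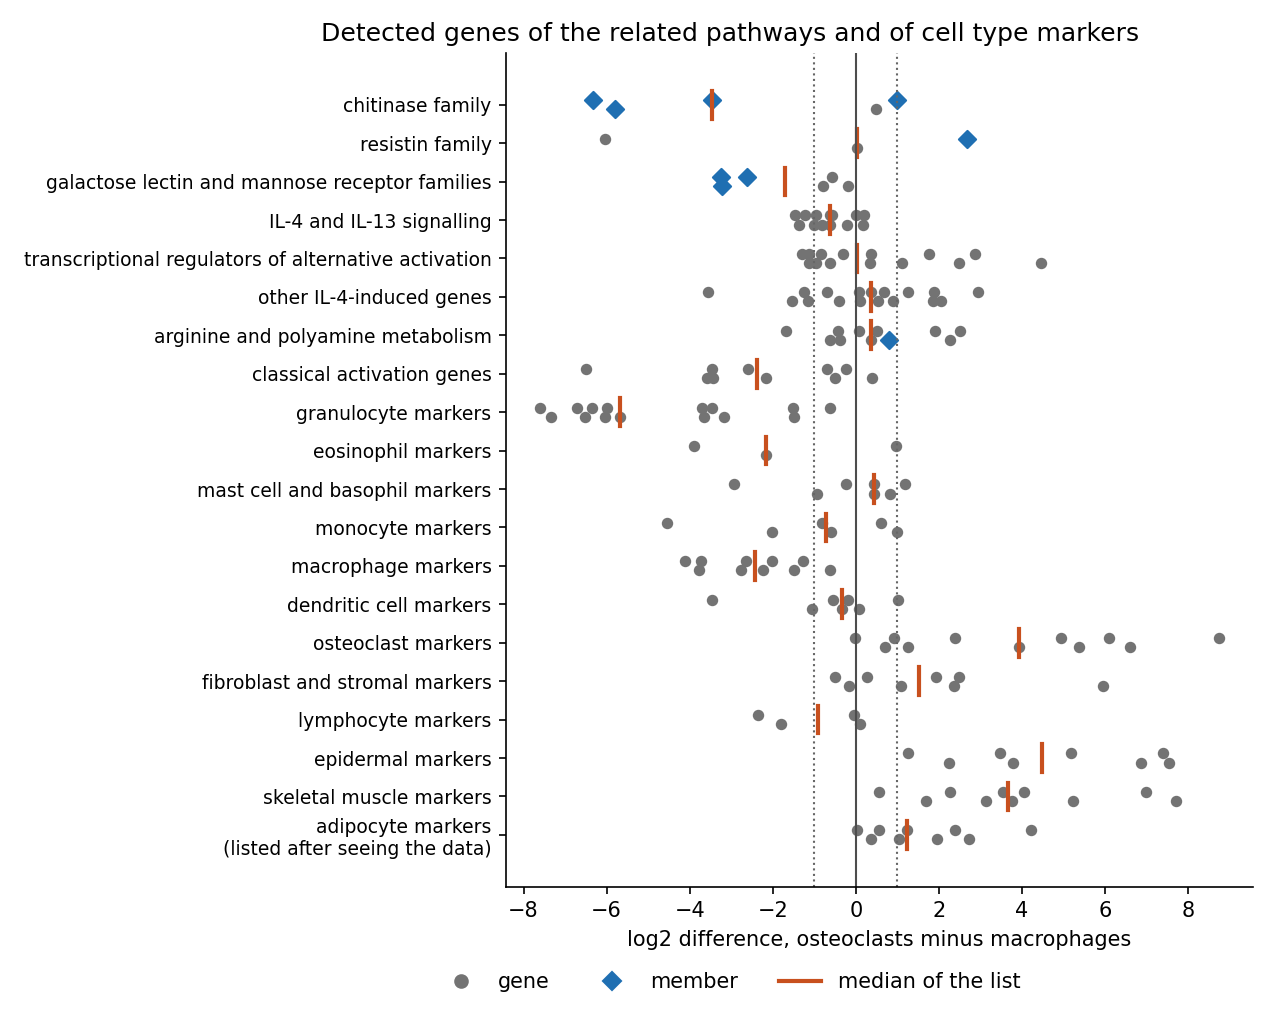
Differences, osteoclasts minus macrophages, of the detected genes of each list (grey points), with members as blue diamonds, list medians as orange bars and dotted lines at 2-fold. The granulocyte and macrophage markers lie on the left with most members, and Retnla lies on the right with the osteoclast, epidermal, muscle and adipocyte markers.

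The authors' processed log2 values of the same arrays gave close differences for the members. Chil4 went from 11.89 to 5.49 (-6.40), Chil3 from 11.86 to 6.04 (-5.82) and Chil1 from 8.74 to 5.44 (-3.30). Mrc1 differed by -2.65, Mgl2 by -3.25, Clec10a by -3.18 and Retnla by 2.65, and Chit1 by 1.27. These are the same 2 hybridisations, so they check the processing and not the samples.

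**Figure D5:**
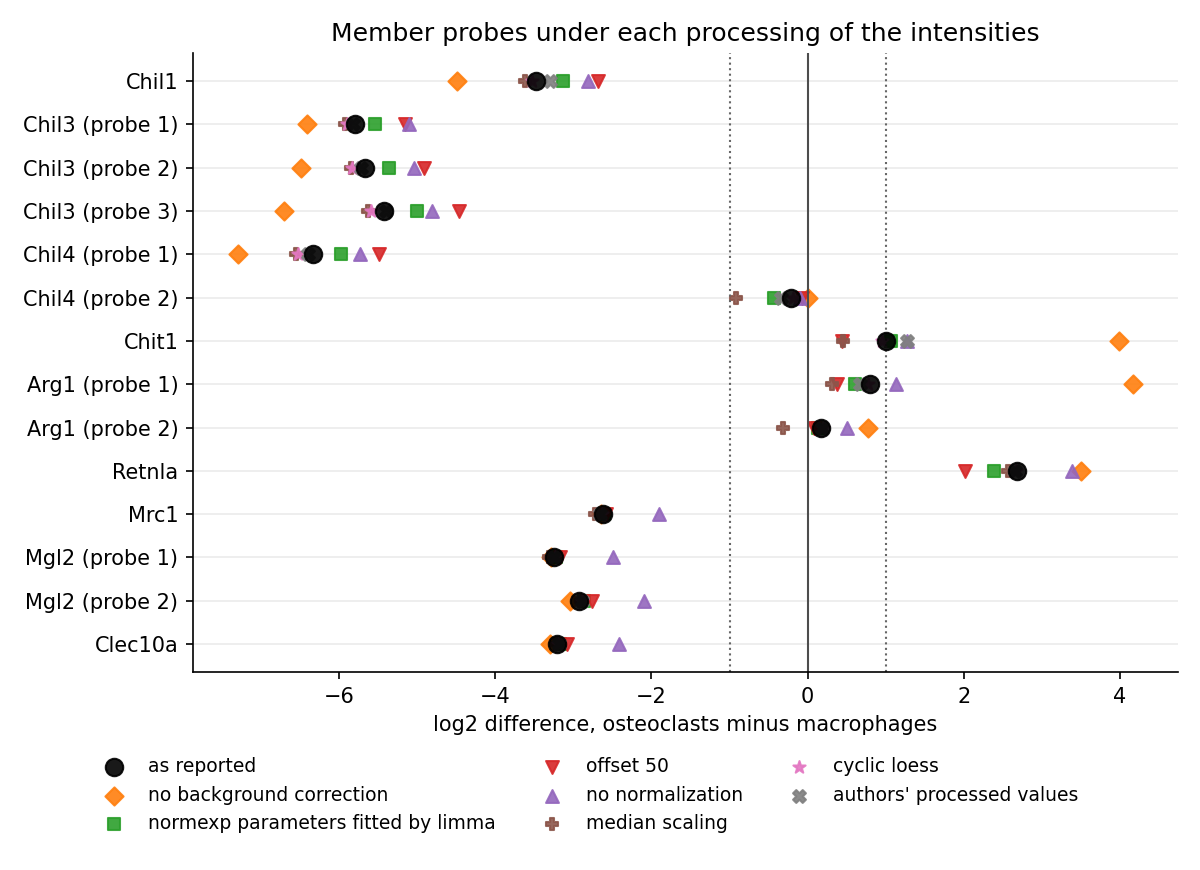
Difference, osteoclasts minus macrophages, of each member probe as reported (black) and under 7 other ways of processing the intensities (coloured symbols), with dotted lines at 2-fold. The brighter probe of Chil4, all probes of Chil1, Chil3, Mrc1, Mgl2 and Clec10a, and that of Retnla stay beyond 2-fold on 1 side in all of them, whereas Chit1 and the first probe of Arg1 cross the line.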

How the data were processed

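Illumina bead arrays measured 1 macrophage and 1 osteoclast sample. The deposited non-normalized table holds linear intensity values, of which 38.4% and 36.9% lay below 0, so the authors had subtracted a background by an unstated method, with scanner software also not given in the sources used here. A second deposited table holds the authors' processed log2 values (medians 5.00 and 5.05). Over 5844 probes above 200 on both arrays, its differences followed the log2 intensity ratio with a slope of 0.97 (r = 0.999 across probes), which sets scale and direction but not centring.

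Background mode and SD were estimated for each array from values below the mode (-3.62 and 3.65 for macrophages, -5.33 and 5.40 for osteoclasts). They entered limma's normexp (limma 3.58.1, R 4.3.3), then an offset of 16, log2 and quantile normalization. Detection used a one-sided p of 0.01 of that background, and 47.9% and 50.8% of probes passed. Without control probes the rate of false detection is unknown. Median intensities were 3.90 and 7.84. Counts use a size rule of 2-fold, with no test, since there is 1 array per group. The platform annotation gave 1 gene to 34885 probes and several to 18, left 10378 unnamed, and 34807 Entrez identifiers matched RefSeq (GRCm38.p6) with 0 symbols changed. No genome build is named for the array, and none of its coordinates are printed. Members and lists were chosen with earlier results of these data known. Named genes were all members, up to 4 genes of each list at least 2-fold apart with the largest differences, and the 3 genes ranked on each side of the member with the largest difference. Other genes named were chosen after their values were seen, and the adipocyte list was added then. Alternatives changed background, offset, normalization, detection or probe choice. The steps were tested on simulated data. Python 3.11.15, pandas 2.3.3 and Biopython 1.88 were used.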

Additional observations from a re-analysis of the deposited data

How the results depend on the processing

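The 6 lower members, 9 lower probes and the direction of the median held in all 11 alternatives that gave them (the probe counts were not computed from gene means), with the median between -3.29 and -2.41. The number of higher members and of higher probes was 2 as reported, 1 with an offset of 50, with median scaling, with cyclic loess, with detection on both arrays only and with genes detected on 1 array at their bound (an alternative chosen after seeing the data), and 3 without background correction or without normalization. The calls that came and went were those of Chit1 and Arg1, both not detected in macrophages. Of all genes 1500 were higher and 1067 lower as reported, 3838 and 374 without normalization, 1307 and 1750 with median scaling, 2815 and 2560 without background correction and 1029 and 739 with an offset of 50, and the median of all detected genes moved from -0.05 to 0.60 without normalization and to -0.22 with median scaling. Counting only genes detected on both arrays turned the median of mast cell and basophil markers to -1.24 (Cpa3 and Hdc) and that of fibroblast markers to -0.16. Those medians rest on few genes, since genes not detected on 1 array are left out. No paired analysis was possible because each group has 1 array, and for the same reason no replicate could be left out. Signal near the detection limit bounds what can be said of Chit1, Arg1 and the second probe of Chil4.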
